A study of Mus musculus with 12 samples.

Results

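The genes described here encode the ID proteins and their E-protein partners: Id1, Id2 and Id3 on the one side, and Tcf3, Tcf4 and Tcf12 on the other. They were taken by symbol from the deposited table of normalised read counts, and all 6 were found among its 24411 gene symbols. All 6 also passed the filter on low values (a mean of at least 10 over the 12 libraries), as did 11484 genes in all. The study sequenced RNA from mouse leukaemia cells, made by retroviral transfer of mutant CSF3R and mutant CEBPA into BALB/c bone marrow. CSF3R is the receptor for granulocyte colony-stimulating factor, and CEBPA is a transcription factor of the granulocyte lineage. All groups carried both mutant genes and were cultured in IMDM with fetal bovine serum for 24 h of treatment. The ruxolitinib group (RUX) received 50 nM of this inhibitor of the kinases JAK1 and JAK2. The GSK-LSD1 group (GSK) received 2 nM of an inhibitor of the histone demethylase LSD1, the combination group (GSKRUX) received both drugs at these doses, and the control group received the solvent DMSO. Each group had 3 libraries, and the labels do not say whether these came from separate cultures, so the p-values measure the spread between libraries, which may be technical.

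E-proteins are basic helix-loop-helix (HLH) transcription factors that bind DNA as dimers at E-box sequences and drive lineage genes, above all in lymphocytes. Tcf3 encodes E2A, Tcf4 encodes E2-2 and Tcf12 encodes HEB. ID proteins have the HLH dimerisation surface but lack the basic region that contacts DNA, so an E-protein bound to an ID protein cannot bind an E-box. In blood formation, high ID activity is known to favour innate lymphoid and myeloid fates over B and T cell fates, and Id genes are classic targets of bone morphogenetic protein (BMP) signalling through SMAD proteins.

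The libraries were near equal in depth. Each library's values were whole multiples of a single step, within a tolerance of 0.01, and the multiples summed to between 8260995 and 8528400. Ruxolitinib replicate 2 and combination replicate 3 lay apart from the other libraries of their groups on principal component 2 (-19.7 and -17.3, where the others lay between -4.64 and 9.73). In both, genes of high GC content ran above the group mean (Spearman's rho over genes 0.43 and 0.57), as a description across genes, which are not independent. The other libraries ran from -0.437 (combination replicate 1) to 0.267 (GSK-LSD1 replicate 1), and deviations from a group mean offset each other within the group. Of 12 markers of the neutrophil lineage 11 were tested, and their summed level was 27271 to 33645 with ruxolitinib, 23103 to 24205 with GSK-LSD1, 29931 to 34864 with the combination and 23238 to 24221 with DMSO. Cebpa and Mpo carried most of this sum. The list includes Cebpa and Csf3r, whose mutant forms were transferred into these cells, and the part of the transferred genes in their values was not tested. Single markers moved in both directions. With ruxolitinib 4 rose (Prtn3, Elane, Mpo and Ctsg), with GSK-LSD1 4 rose (Ptprc, Cebpe, Kit and Itgam) and 3 fell (Prtn3, Elane and Ctsg), and with the combination 6 rose and none fell. Of all genes tested, 1.63% were called with ruxolitinib. With GSK-LSD1 17.0% rose and 15.5% fell, and with the combination 20.5% rose and 21.8% fell. The B cell markers Ms4a1 and Pax5, the T cell markers Cd4 and Bcl11b, and the endothelial markers Cdh5 and Kdr were at 0 in every library. Of 6 endothelial and stromal markers 2 were tested, and both rose with GSK-LSD1, where 17.0% of all genes rose. Pecam1 averaged 3601.8 normalised read counts with GSK-LSD1 and 3786.7 with the combination, against 2991.8 with DMSO (limma adjusted p = 0.00122 and 6.87e-05), and Col1a1 averaged 71.5 and 55.2, against 42.4 (adjusted p = 0.00241 and 0.0972). The part of these markers in the changes of the Id genes was not tested.

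Id3 and, by much less, Id2 rose with GSK-LSD1 and with the combination, while no E-protein gene passed the test in any of the 6 pairwise comparisons. Id3 averaged 101.4 ± 4.86 normalised read counts with GSK-LSD1 and 115.3 ± 7.99 with the combination, against 14.2 ± 7.66 with DMSO (SD, n = 3 each). Id2 averaged 419.2 ± 12.4 with GSK-LSD1 and 404.9 ± 30.5 with the combination, against 344.8 ± 16.2 with DMSO. Id1 did not pass the test in any comparison. With GSK-LSD1, 2 of the 6 genes were called against DMSO at an adjusted p under 0.05 (limma, Benjamini-Hochberg over all genes), where 32.5% of all genes tested were called and 17.0% were higher. With the combination 2 of 6 were called against DMSO, where 42.3% of all genes were called and 20.5% were higher. The F-test over the 4 treatments called the same 2 of 6, where it called 42.8% of all genes. With ruxolitinib alone 0 of 6 were called, where 1.63% of all genes were called by limma (187 genes, and 2012 at an unadjusted p under 0.05). The 3 comparisons with DMSO share the same DMSO libraries. In bulk RNA, a change in the number of cells that express a gene and a change in RNA per cell cannot be told apart.

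**Figure D1:**
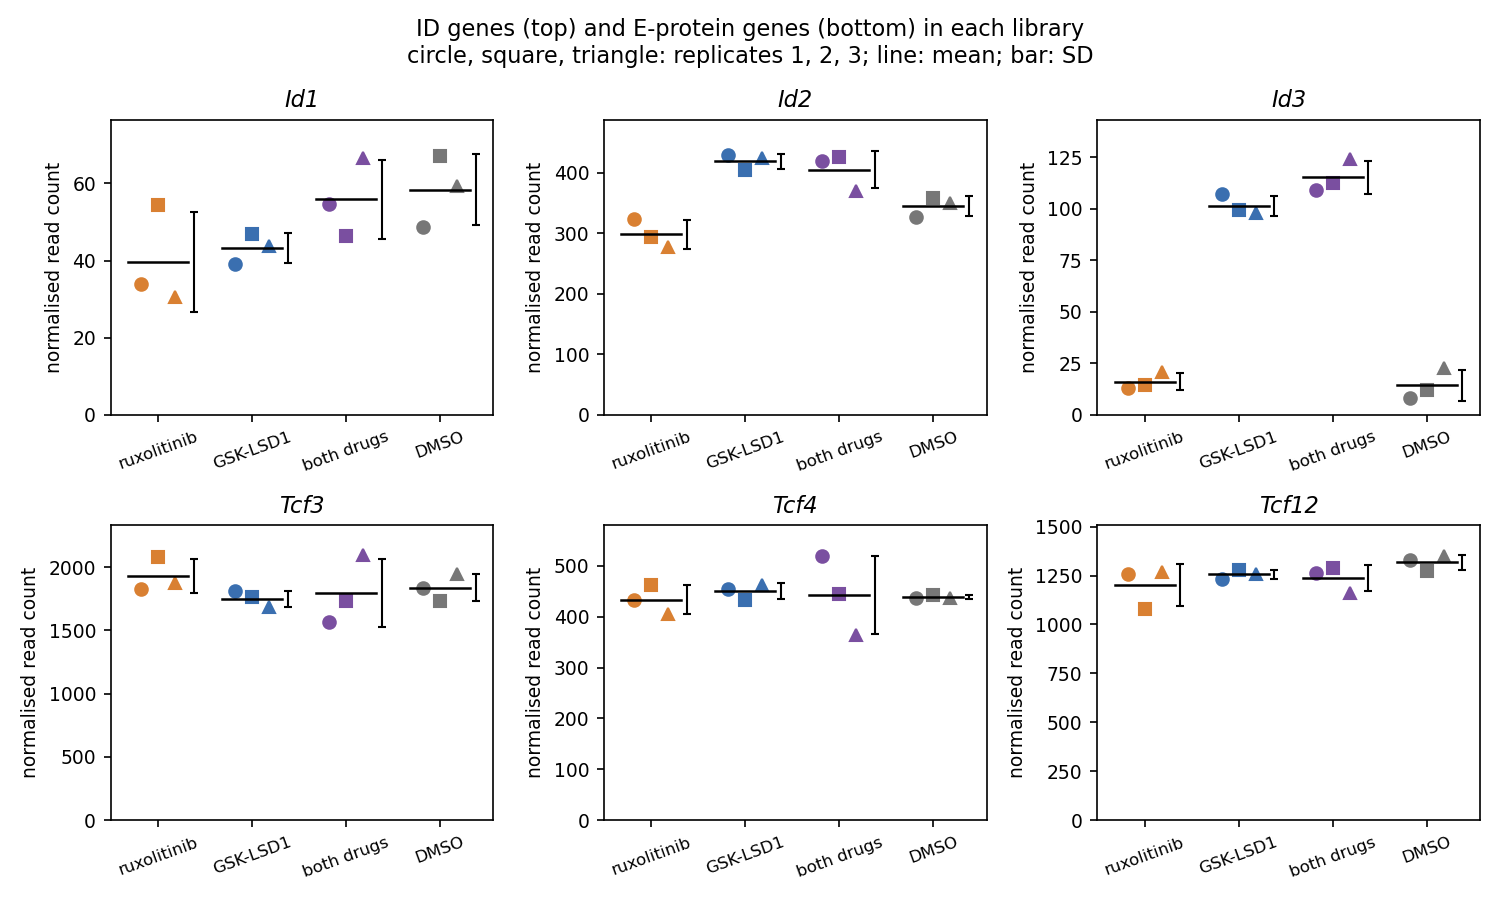
Normalised read counts (vertical axes, from 0) of Id1, Id2 and Id3 in the top row and Tcf3, Tcf4 and Tcf12 in the bottom row, in ruxolitinib, GSK-LSD1, combination (both drugs) and DMSO libraries. Points are libraries, lines are means and bars are SD (n = 3); the Id3 libraries with GSK-LSD1 lie between 97.7 and 124.3, and those without it between 7.94 and 22.8.

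Id3 (ENSMUSG00000007872; chromosome 4, 136143497 to 136145755, plus strand, GRCm38) is the ID gene best known as a target of antigen receptor and BMP signals in lymphocytes and their precursors. It had 12.9, 14.4 and 20.8 normalised read counts in the ruxolitinib libraries, 106.9, 99.5 and 97.7 in the GSK-LSD1 libraries, 109.1, 112.5 and 124.3 in the combination libraries, and 7.94, 12 and 22.8 in the DMSO libraries. Every library with GSK-LSD1 was above every library without it, and the ruxolitinib values lay inside the DMSO range. Of all genes tested, 24.4% did not overlap and were higher with GSK-LSD1 than with DMSO, and 24.9% with the combination. The log2 fold change against DMSO was 2.87 ± 0.26 (SE) with GSK-LSD1 (limma adjusted p = 2.76e-08), a 7.12-fold ratio of means, and 3.05 ± 0.26 with the combination (adjusted p = 6.84e-09), an 8.10-fold ratio. These values are on the scale of log2(value + 1), where the added 1 shrinks changes of low genes. Here the log2 changes still correspond to 7.29-fold with GSK-LSD1 and 8.27-fold with the combination, slightly above the ratios of means. Ruxolitinib alone gave 0.25 ± 0.26 (adjusted p = 0.646), with a 95% interval from -0.28 to 0.78. The DMSO level rests on 8 to 23 normalised reads per library, so the size of the fold is less certain than its direction: across the 24 alternative settings the log2 change with GSK-LSD1 lay between 2.54 and 3.25.

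The promoter window of Id3 given by RefSeq (GRCm38.p6, 250 bases before and 50 after the gene start) lies within the 5′ untranslated region of the GENCODE transcript. It is shown because Id genes are known SMAD targets and genes of that pathway are among the results. Searched on both strands, it held the SMAD element CAGAC at 2 places, and 16.2% of the 32841 promoter windows held it at 2 or more. These stretches are printed in the direction of the gene, with the element in capitals (in the second, as its complement GTCTG).
Id3 at -167, chr4:136143643-136143671 (plus strand): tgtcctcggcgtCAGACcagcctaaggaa
Id3 at -68, chr4:136143742-136143770 (plus strand): ggacccttggcgGTCTGttttgaataagg
The window held no E-box (CANNTG, in 72.3% of windows) and no AATC, the core bound by the GFI1 repressors (in 73.1% of windows). It also held no GGCGCC, an element of the kind bound by BMP-activated SMADs (in 11.9% of windows). A match to such short letters is a description and not a binding site, and binding was not measured.

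Id2 (ENSMUSG00000020644; chromosome 12, 25093799 to 25097140, minus strand) is required for innate lymphoid and natural killer (NK) cells and for some dendritic cells. It had 323.3, 293.8 and 276.7 normalised read counts in the ruxolitinib libraries, 428.6, 405.1 and 423.8 in the GSK-LSD1 libraries, 418.6, 426.2 and 369.9 in the combination libraries, and 326.7, 358.1 and 349.6 in the DMSO libraries. All 6 libraries with GSK-LSD1 lay above all DMSO libraries, and all ruxolitinib libraries lay below them, by a gap of a few reads. Of all genes tested, 24.4% lay wholly above DMSO with GSK-LSD1 and 24.9% with the combination. With GSK-LSD1 the log2 change against DMSO was 0.28 ± 0.08 (limma adjusted p = 0.0119), and with the combination it was 0.23 ± 0.08 (adjusted p = 0.029). Both calls were fragile. Without DMSO replicate 1 the change was 0.24 with GSK-LSD1 (adjusted p = 0.0622) and 0.19 with the combination (adjusted p = 0.12). The combination's call was also lost without DMSO replicate 3 (0.24, adjusted p = 0.0566), without combination replicate 1 (0.20, adjusted p = 0.0922) and without combination replicate 2 (0.19, adjusted p = 0.112). Ruxolitinib alone gave -0.21 ± 0.08 (adjusted p = 0.183), with an interval from -0.38 to -0.04. Libraries of ruxolitinib and DMSO did not overlap for Id2 or Tcf12, with ruxolitinib lower in both, and the same held for 12.8% of all genes tested.

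Against ruxolitinib in place of DMSO, Id2 differed by more. The combination was 0.44 ± 0.08 above ruxolitinib (limma adjusted p = 0.000304) and GSK-LSD1 was 0.49 ± 0.08 above it (adjusted p = 0.000133). Both calls held under all 24 alternatives, with log2 values of 0.39 to 0.50 for the combination and 0.42 to 0.55 for GSK-LSD1. The RefSeq promoter window of Id2 lies inside the GENCODE gene, in the first intron and the next exon of its longest transcript, which starts further upstream, and at the start of the shorter transcripts. Read on the minus strand, it held an E-box, an AATC core on the opposite strand and a GGCGCC element of the kind bound by BMP-activated SMADs (in 11.9% of windows), and no CAGAC. These stretches are shown with the match in capitals, read in the direction of the gene.
Id2 E-box at -196, chr12:25096271-25096300 (minus strand): aatttgccacccCAGCTGggctctcgcccg
Id2 AATC core at -53, chr12:25096130-25096157 (minus strand): tcagggatgcccGATTgagcggccaggg
Id2 BMP SMAD element at -231, chr12:25096306-25096335 (minus strand): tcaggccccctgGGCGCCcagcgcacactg

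Id1 (ENSMUSG00000042745; chromosome 2, 152736251 to 152737410, plus strand), an ID gene known for its response to BMP in many cell types, did not follow Id2 and Id3. It had 33.8, 54.5 and 30.6 normalised read counts with ruxolitinib, 39.0, 46.8 and 43.9 with GSK-LSD1, 54.6, 46.4 and 66.6 with the combination and 48.7, 67.0 and 59.4 with DMSO. The GSK-LSD1 libraries all lay below the DMSO libraries, and 26.5% of all genes tested did so too. Ruxolitinib replicate 2 lay inside the DMSO range and the other ruxolitinib libraries below it, while the combination libraries overlapped DMSO. The log2 change against DMSO was -0.58 ± 0.21 with ruxolitinib (limma adjusted p = 0.152; interval from -1.01 to -0.15), -0.42 ± 0.21 with GSK-LSD1 (adjusted p = 0.13) and -0.07 ± 0.21 with the combination (adjusted p = 0.824). Without ruxolitinib replicate 2 and combination replicate 3, the libraries that stood apart, the ruxolitinib change was -0.83 and passed the test (adjusted p = 0.0173). With levels corrected for GC content, the GSK-LSD1 change was -0.52 and passed (adjusted p = 0.0357), and with quantile normalisation it was -0.62 (adjusted p = 0.0249). The GC correction also takes off any GC trend that follows treatment.

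The interaction asked whether the combination differed from the sum of the single changes on the log2 scale. It was 0.93 ± 0.29 for Id1, with an interval from 0.33 to 1.54 and an unadjusted p of 0.00432, but the limma adjusted p over all genes was 0.774. In all, 1 gene of 11484 passed this test (0.00871%), with 534 genes at an unadjusted p under 0.05, and 0 of the 6 members were called. Id2 had an interaction of 0.16 (interval from -0.08 to 0.40), and Id3 of -0.07 (from -0.82 to 0.69). The Id3 interval is too wide to say whether the effects of the drugs add up.

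With ruxolitinib added to GSK-LSD1, 0 of the 6 genes passed the test, where 1.40% of all genes were called by limma (161 genes, and 1407 at an unadjusted p under 0.05). Id3 was higher in every combination library than in every GSK-LSD1 library, at a log2 difference of 0.18 (interval from -0.35 to 0.72, adjusted p = 0.835), and 8.81% of all genes showed such an order. Id2 differed by -0.05 (from -0.22 to 0.12, adjusted p = 0.857) and Id1 by 0.35 (from -0.08 to 0.78, adjusted p = 0.518). With GSK-LSD1 added to ruxolitinib, 2 of 6 genes were called, where 31.6% of all genes were called and 16.0% were higher. These were Id3 at 2.80 ± 0.26 (adjusted p = 3.53e-08) and Id2, described above. Id1 was 0.51 ± 0.21 higher without passing (adjusted p = 0.0619). It passed without ruxolitinib replicate 2 (0.76, adjusted p = 0.00664), without combination replicate 2 (0.64, adjusted p = 0.0437) and without both libraries that stood apart (0.63, adjusted p = 0.0273). Tcf3, not called in this comparison, was lower with the combination than with ruxolitinib and passed after GC correction (-0.15, adjusted p = 0.0259), without combination replicate 3 (-0.22, adjusted p = 0.0123) and without both libraries that stood apart (-0.17, adjusted p = 0.032). GSK-LSD1 set against ruxolitinib also called 2 of 6, Id2 and Id3, where 25.4% of all genes were called and 13.6% were higher.

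**Figure D2:**
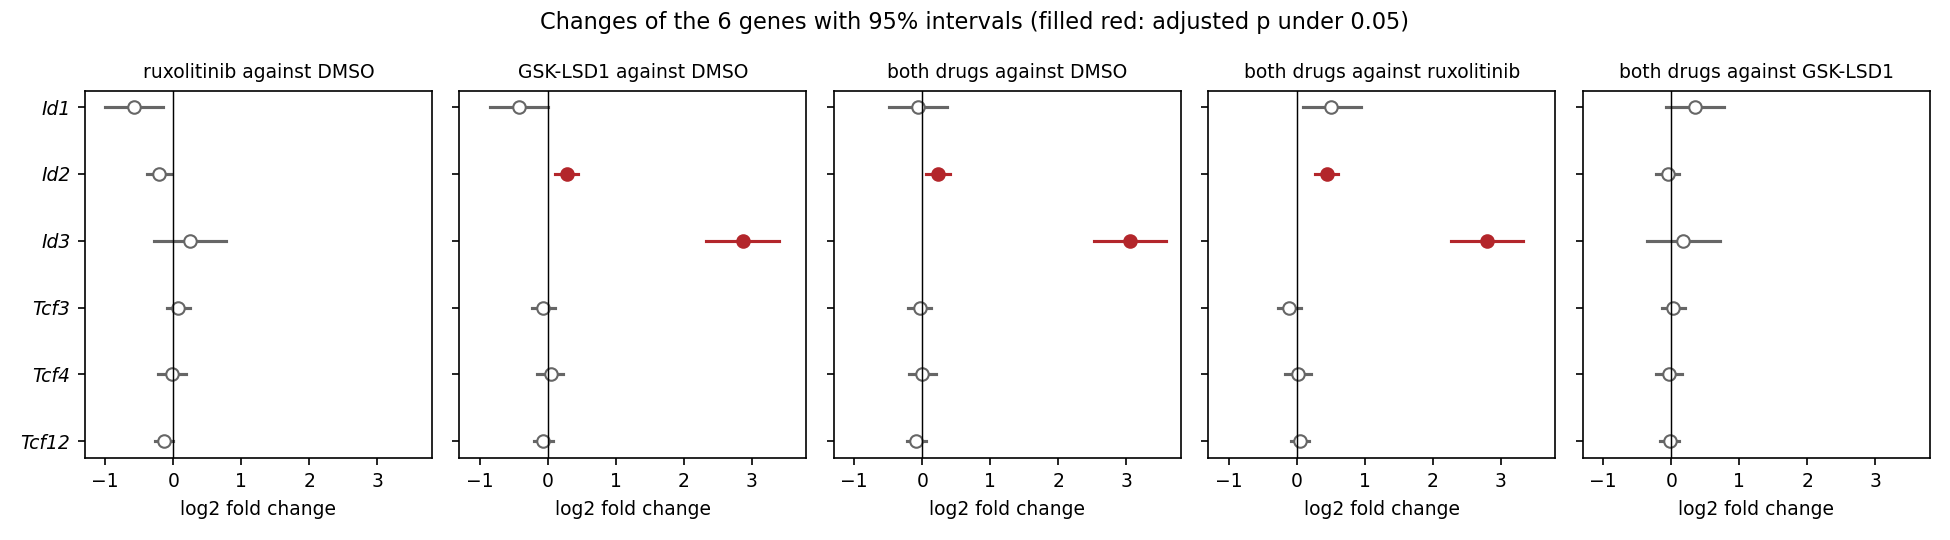
Log2 fold changes (horizontal axes) of the 6 genes in 5 comparisons, 1 panel each, with 95% intervals as bars; filled red points have an adjusted p under 0.05. Id3 at 2.80 to 3.05 and Id2 at 0.23 to 0.44 are filled in the 3 panels where GSK-LSD1 was added, and no point is filled for ruxolitinib alone or for the combination against GSK-LSD1.

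Tcf3 (ENSMUSG00000020167; chromosome 10, 80409514 to 80433647, minus strand), needed for B and T cell formation, was the E-protein gene with the highest count. It had 1829.5, 2078.5 and 1871.6 normalised read counts with ruxolitinib, 1807.3, 1761.7 and 1682.3 with GSK-LSD1, 1569.1, 1729.3 and 2091.4 with the combination, and 1832.2, 1730.4 and 1942.9 with DMSO. The groups overlapped DMSO in each case, and ruxolitinib replicate 2 and combination replicate 3, where GC-rich genes were raised most, were the highest of their groups. Tcf3 is GC-rich itself, at 61.0%, the highest of the 6 genes. The part of GC content in the Tcf3 values of these libraries was not tested. The changes against DMSO were 0.07 with ruxolitinib (interval from -0.10 to 0.24), -0.07 with GSK-LSD1 (from -0.23 to 0.10) and -0.04 with the combination (from -0.21 to 0.13), with limma adjusted p-values of 0.694, 0.562 and 0.726.

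After the GC correction Tcf3 was lower with GSK-LSD1 than with DMSO by -0.18 ± 0.05 (limma adjusted p = 0.00736). It was also lower with the combination, by -0.20 ± 0.05 (adjusted p = 0.00228). Without ruxolitinib replicate 2 and combination replicate 3, and with no correction, the combination's change was -0.15 (adjusted p = 0.0222) and that of GSK-LSD1 alone was -0.07 (adjusted p = 0.286). With ruxolitinib alone Tcf3 did not pass under either setting, at -0.06 (adjusted p = 0.635) and 0.01 (adjusted p = 0.933). The GC correction measures each library against the mean of all 12 libraries, so it also takes off any GC trend that follows treatment. How far the corrected Tcf3 changes come from such a trend was not tested.

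**Figure D3:**
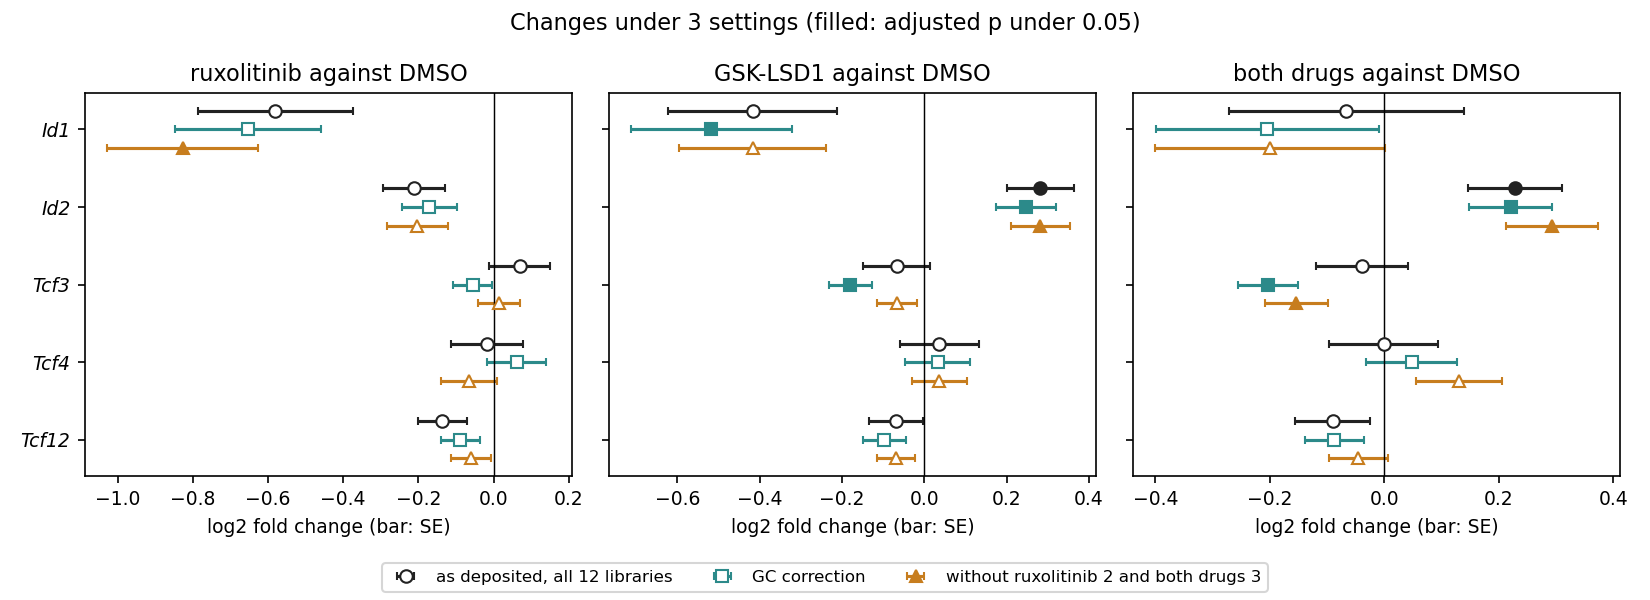
Log2 fold changes against DMSO (horizontal axes, a scale of its own in each panel, bars SE) of 5 of the 6 genes under 3 settings: values as deposited (circles), GC correction (squares) and without ruxolitinib replicate 2 and combination replicate 3 (triangles). Filled points have an adjusted p under 0.05; Id3 is left off because its changes of over 2.7 with GSK-LSD1 would flatten the scale, Id2 is filled under all 3 settings with GSK-LSD1 and the combination, and Tcf3 is filled with GSK-LSD1 after GC correction and with the combination under both changed settings.

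Tcf4 (ENSMUSG00000053477; chromosome 18, 69343356 to 69689079, plus strand), the E-protein gene that specifies plasmacytoid dendritic cells, was level across treatments within its spread. It had 432.8, 462.4 and 406.1 normalised read counts with ruxolitinib, 454.6, 433.0 and 462.7 with GSK-LSD1, 518.7, 444.9 and 365.0 with the combination, and 436.0, 442.1 and 437.7 with DMSO. The combination libraries spread widest and enclosed all DMSO values. The changes were -0.02 (interval from -0.22 to 0.18) with ruxolitinib, 0.04 (from -0.16 to 0.23) with GSK-LSD1 and 0.00 (from -0.20 to 0.20) with the combination, and the F-test over the 4 treatments had a limma adjusted p of 0.959.

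Tcf12 (ENSMUSG00000032228; chromosome 9, 71842688 to 72111871, minus strand), whose product pairs with E2A in T cell precursors, had 1259.5, 1079.8 and 1268.8 normalised read counts with ruxolitinib and 1233.9, 1277.0 and 1258.5 with GSK-LSD1. It had 1265.6, 1289.3 and 1162.6 with the combination and 1331.7, 1274.3 and 1348.7 with DMSO. All 3 group means of treated cells lay below the DMSO mean, and only the ruxolitinib libraries lay wholly below the DMSO libraries. The changes were -0.14 (interval from -0.27 to 0.00), -0.07 (from -0.21 to 0.07) and -0.09 (from -0.23 to 0.05) with ruxolitinib, GSK-LSD1 and the combination. None passed (limma adjusted p = 0.292, 0.458 and 0.286). For each E-protein gene, the intervals against DMSO lay within -0.27 to 0.24 on the log2 scale, so a change of the size seen for Id2 was near the limit of what these libraries could show.

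To set the genes beside each other, levels were divided by the median length of their coding transcripts in GENCODE, which is 1.05 to 1.28 kb for the ID genes and 1.84 to 2.83 kb for the E-protein genes. On this scale of normalised read counts per kb, Tcf3 was highest in every group, with means of 679.8 with ruxolitinib, 617.7 with GSK-LSD1, 633.9 with the combination and 647.6 with DMSO. Tcf12 was next at 532.9, 556.7, 549.0 and 584.1 in the same groups, and its libraries overlapped those of Tcf3 only in the combination. Id2 and Tcf4 were close to each other and overlapped with ruxolitinib (217.9 to 254.6 for Id2 and 220.6 to 251.1 for Tcf4). In the other groups Id2 was above Tcf4, at 330.1 against 244.4 with GSK-LSD1, 318.8 against 240.5 with the combination and 271.5 against 238.2 with DMSO.

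Id1 and Id3 held the lowest ranks, and their order differed between groups. Id3 was above Id1 with GSK-LSD1 (76.5 to 83.6 per kb for Id3, 37.2 to 44.7 for Id1) and with the combination (85.4 to 97.3 and 44.3 to 63.6). Id1 was above Id3 with ruxolitinib (29.3 to 52.0 per kb for Id1, 10.1 to 16.2 for Id3) and with DMSO (46.5 to 64.0 and 6.22 to 17.8). The ranks of Tcf4 and Tcf12 depend on the length used. With all annotated exons joined, 27.4 kb for Tcf4 and 15.5 kb for Tcf12, Tcf4 fell to 16.0 per kb with DMSO, below Id1 at 50.3, and Tcf12 fell to 84.9, below Id2 at 141.4.

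The summed ID level per kb was 285.0 ± 18.8 with ruxolitinib, 450.7 ± 8.5 with GSK-LSD1, 462.4 ± 8.8 with the combination and 338.4 ± 24.8 with DMSO (SD, n = 3 each). The summed E-protein level was 1448.2 ± 12.9, 1418.8 ± 14.8, 1423.5 ± 27.6 and 1469.8 ± 52.8 per kb in the same groups. The ID sum was therefore 18.2% to 20.6% of the E-protein sum with ruxolitinib, 31.0% to 32.2% with GSK-LSD1 and 31.2% to 33.5% with the combination, against 21.0% to 25.1% with DMSO. The GSK-LSD1 and combination libraries lay above the DMSO libraries and the ruxolitinib libraries below them. With exons joined, the means were 29.0% with ruxolitinib, 50.1% with GSK-LSD1, 51.9% with the combination and 36.0% with DMSO, which keeps the order of the groups.

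Within the ID sum, Id2 remained the main part. It made up 82.3% with ruxolitinib, 73.2% with GSK-LSD1, 68.9% with the combination and 80.3% with DMSO, as group means. Id3 made up 4.46% ± 1.49 with ruxolitinib, 17.6% ± 0.668 with GSK-LSD1, 19.5% ± 1.73 with the combination and 3.25% ± 1.63 with DMSO. These are shares of RNA; protein was not measured here, and the ID sums describe the same values as the tests above.

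**Figure D4:**
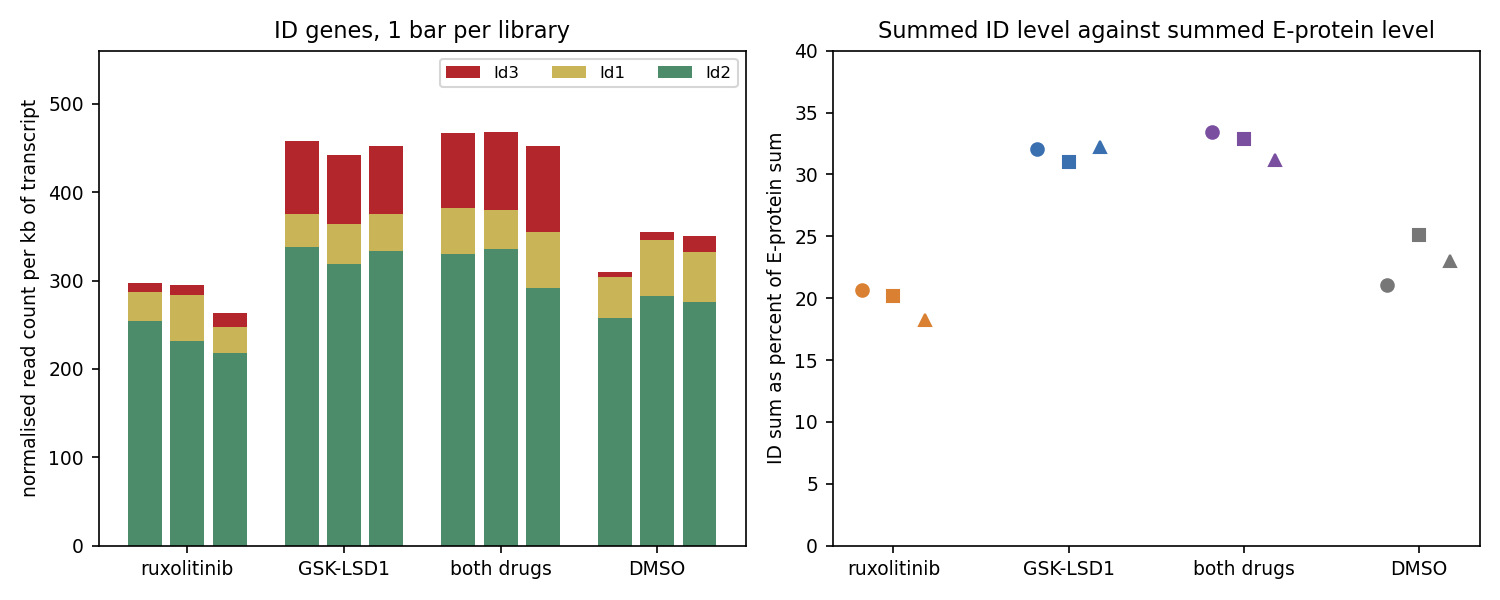
Left, levels of Id2, Id1 and Id3 stacked for each library (normalised read count per kb of median coding transcript), grouped by treatment; right, the ID sum as a percent of the E-protein sum, 1 point per library. The libraries with GSK-LSD1 lie between 31.0% and 33.5%, and those without it between 18.2% and 25.1%.

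Among genes for other proteins of the dimer network, Lmo2 fell and Cbfa2t3 rose with GSK-LSD1. E-proteins work with tissue-specific HLH partners such as TAL1 and LYL1, the bridging proteins LMO2 and LDB1, and corepressors of the ETO family. Of 17 such genes 10 were tested. With ruxolitinib none passed, with GSK-LSD1 1 rose and 3 fell (median log2 change -0.02), and with the combination 1 rose and 1 fell (median -0.08), where 15.5% of all genes fell with GSK-LSD1 and 21.8% with the combination. The median change of all genes was between -0.02 and 0.00 in these comparisons. Lmo2, a partner of TAL1 and LYL1, fell to 679.4 normalised read counts with GSK-LSD1 and 687.7 with the combination, against 970.7 with DMSO (log2 changes -0.52 ± 0.07 and -0.50 ± 0.07, limma adjusted p = 1.3e-05 and 1.11e-05). Its GSK-LSD1 libraries lay between 651.9 and 723.0 and its combination libraries between 662.5 and 713.2, all below the DMSO range of 941.7 to 993.3. Cbfa2t3, the ETO family corepressor ETO2, rose by 0.25 ± 0.06 with GSK-LSD1 (adjusted p = 0.00365) and by 0.24 ± 0.06 with the combination (adjusted p = 0.00354). After GC correction, no gene of this list rose with the combination and 4 fell. Cbfa2t3 shares exon positions with Gm10612 on the opposite strand, and whether counting used strand is not given in the sources used here. The low genes Twist1 and Lmo1, named after their values were seen, fell with GSK-LSD1. Their means were 5.99 and 5.32, against 19.6 and 15.3 with DMSO. Neither passed with the combination, at means of 11.6 and 12.2, and the Lmo1 values of the DMSO libraries ran from 6.93 to 24.8.

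Of 8 other HLH genes that act as repressors or inhibitors 3 were tested, and Id4, the fourth ID gene, was at 0 in every library. Hes1, a repressor downstream of Notch, fell by 0.32 on the log2 scale with GSK-LSD1 (limma adjusted p = 0.00283) and by 0.24 with the combination (adjusted p = 0.0138). Its GSK-LSD1 libraries had 754.4 to 879.2 normalised read counts and its combination libraries 789.5 to 956.7, against 998.3 to 1059.6 in DMSO libraries. Of 5 genes for the turnover of ID proteins none passed with ruxolitinib, 3 fell with GSK-LSD1 and 2 fell with the combination, where 15.5% and 21.8% of all genes fell. Without the libraries that stood apart, 1 gene of this list also rose with GSK-LSD1. Usp1, a deubiquitinase that keeps ID proteins from degradation, averaged 1129.5 with GSK-LSD1 and 1042.2 with the combination, against 1399.3 with DMSO (-0.31 ± 0.06 and -0.43 ± 0.06, adjusted p = 0.00096 and 1.86e-05). Cops5, a subunit of the COP9 signalosome, fell by 0.24 and 0.42 on the log2 scale with GSK-LSD1 and the combination (adjusted p = 0.0249 and 0.000199). Cdc20, an activator of the anaphase-promoting complex, fell by 0.19 with GSK-LSD1 (adjusted p = 0.0388) and was at -0.14 with the combination (adjusted p = 0.102). Cops5 shares exon positions with Cspp1 and Cdc20 with Elovl1, each on the opposite strand.

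Genes of the BMP and TGF-beta pathway, which is known to drive Id genes through receptors and SMAD proteins, rose in part with GSK-LSD1. Of 27 such genes 23 were tested. None passed with ruxolitinib, 11 rose and none fell with GSK-LSD1 (median log2 change 0.30), and 9 rose and 1 fell with the combination (median 0.23). Of all genes, 17.0% rose with GSK-LSD1 and 20.5% with the combination. The other 12 did not pass with GSK-LSD1, and without the libraries that stood apart 1 of them fell. Tgfbr3, counted as a rise with GSK-LSD1, averaged 8.96 with DMSO and 22.3 with GSK-LSD1. Eng and Acvr2b, counted as rises with the combination, averaged 7.96 and 8.62 with DMSO, and 21.5 and 17.9 with the combination. These genes reached the filter mean of 10 only through the libraries with GSK-LSD1, so the filter favoured their rises. Acvrl1, the receptor ALK1 for BMP9 and BMP10, had 7.96, 8.22 and 11.9 normalised read counts with ruxolitinib, 72.9, 77.6 and 45.9 with GSK-LSD1, 78.4, 76.0 and 74.6 with the combination, and 9.93, 16.0 and 13.9 with DMSO. All libraries with GSK-LSD1 were above all without it. The log2 changes against DMSO were 2.21 ± 0.24 with GSK-LSD1 and 2.46 ± 0.24 with the combination (limma adjusted p = 5.06e-07 and 5.93e-08).

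Bmpr1a, the BMP receptor ALK3, averaged 111.0 with GSK-LSD1 and 123.5 with the combination, against 49.4 with DMSO (1.16 ± 0.15 and 1.31 ± 0.15, limma adjusted p = 5.11e-06 and 5.54e-07). Its lowest library with GSK-LSD1 had 97.9 normalised read counts, against 59.0 in the highest DMSO library. Smad1, a SMAD that BMP receptors phosphorylate, averaged 313.1 with GSK-LSD1 and 359.4 with the combination, against 230.4 with DMSO (0.44 ± 0.08 and 0.64 ± 0.08, adjusted p = 0.000347 and 2.94e-06). Smad5, another such SMAD and named after its values were seen, fell by 0.29 with the combination (adjusted p = 0.00499). Acvrl1 and Bmpr1a share exon positions with Gm16031 and Gm17110 on the opposite strand. The inhibitory SMAD genes, themselves known SMAD targets and also named after their values were seen, did not go together. Smad7 was at -0.01 with GSK-LSD1 (adjusted p = 0.943) and at 0.15 with the combination (adjusted p = 0.239). Smad6, too low to be tested, had 4.98 to 14.0 normalised read counts with GSK-LSD1, 12.9 to 17.9 with the combination and 0.993 to 6.0 with DMSO, so the combination libraries lay above the DMSO libraries. The phosphorylation of SMAD proteins was not measured here.

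**Figure D5:**
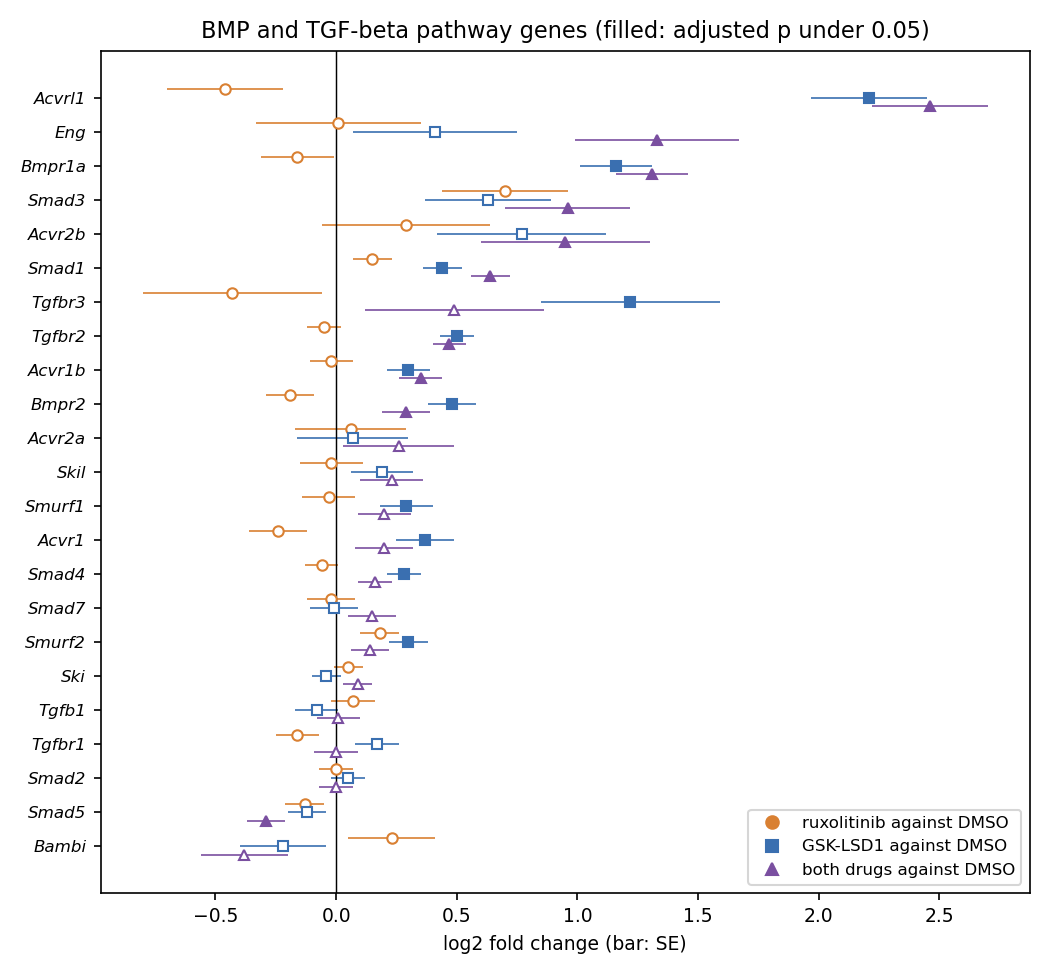
Log2 fold changes against DMSO (horizontal axis, bars SE) of the 23 tested BMP and TGF-beta pathway genes, 1 row each, for ruxolitinib (circles), GSK-LSD1 (squares) and the combination (triangles); filled points have an adjusted p under 0.05. Acvrl1 at 2.21 and 2.46 lies farthest to the right, and no ruxolitinib point is filled.

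Among 13 other genes for known regulators of Id genes 10 were tested. With ruxolitinib 1 rose and 2 fell, and both with GSK-LSD1 and with the combination 6 rose and 1 fell (medians 0.28 and 0.23). Of all genes, 1.63% were called with ruxolitinib, 17.0% rose and 15.5% fell with GSK-LSD1, and 20.5% rose and 21.8% fell with the combination. After GC correction 2 of this list fell both with GSK-LSD1 and with the combination. The genes of the repressors GFI1 and GFI1B, which recruit LSD1, were among those that rose, and GFI1 is known to repress Id2. Gfi1b averaged 4040.2 with GSK-LSD1 and 4789.5 with the combination, against 770.0 with DMSO (log2 changes 2.39 and 2.63). Gfi1 averaged 347.7 with GSK-LSD1 and 418.3 with the combination, against 94.5 with DMSO (1.86 and 2.13), and it shares exon positions with A430072P03Rik on the opposite strand. Egr1, an activator of Id3 downstream of antigen receptors, was lower in every treated group. It had 284.5, 336.0 and 338.9 normalised read counts with ruxolitinib, 204.8, 224.9 and 172.5 with GSK-LSD1, 148.8, 154.9 and 176.0 with the combination, and 453.8, 462.1 and 489.2 with DMSO. The log2 changes were -0.55 ± 0.10, -1.23 ± 0.10 and -1.55 ± 0.10 (limma adjusted p = 0.00874, 1.07e-08 and 2.24e-10 in that order of treatments). The Id3 and Id2 promoter windows held neither form of the EGR element searched (GCGTGGGCG, in 0.612% of windows, and GCGGGGGCG, in 2.91%).

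Genes that E-proteins are known to activate in lymphocytes were mostly too low to test, with 8 of 20 tested and Pax5, Dntt and Cd4 at 0 in every library. Of the 8, none passed with ruxolitinib, 6 rose with GSK-LSD1 (median 0.52) and 5 rose with the combination (median 0.47), and none fell, where 17.0% and 20.5% of all genes rose. After GC correction 1 fell with ruxolitinib, and 1 fell with the combination both after GC correction and without the libraries that stood apart. Notch1 had 775.3, 949.5 and 840.7 normalised read counts with GSK-LSD1, 856.9, 949.0 and 886.1 with the combination, and 506.5, 483.1 and 435.7 with DMSO. It rose in every library with GSK-LSD1 (0.84 ± 0.08 and 0.92 ± 0.08, limma adjusted p = 5.44e-08 and 9.11e-09 for GSK-LSD1 and the combination). Notch3 rose by 0.95 ± 0.20 and 0.91 ± 0.20 in the same comparisons (adjusted p = 0.000814 and 0.000795). Foxo1, a transcription factor of early B cells and T cells, rose by 0.52 ± 0.09 and 0.44 ± 0.09 (adjusted p = 0.000142 and 0.000447). All 3 share exon positions with genes on the opposite strand. Activity of the E-proteins themselves was not measured.

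Cell types known for high Id2 or Tcf4 were looked for by their markers. For NK and innate lymphoid cells, the defining genes Ncr1 and Klrk1 were at 0 in every library. The summed level of the 9 markers was 1154.0 to 1358.8 with ruxolitinib, 1227.9 to 1348.6 with GSK-LSD1, 1259.0 to 1336.7 with the combination and 1147.7 to 1236.3 with DMSO, most of it Zbtb16. Of the 9 markers 5 were tested, 3 rose with GSK-LSD1, 3 rose with the combination and none with ruxolitinib, where 17.0% of all genes rose with GSK-LSD1 and 20.5% with the combination. Among them Tbx21, which encodes T-bet, had 23.0, 36.8 and 34.9 normalised read counts with GSK-LSD1 and 29.8, 47.4 and 36.8 with the combination, and was at 0 in all 6 libraries without GSK-LSD1. Tbx21 passed the filter on low values only through the libraries with GSK-LSD1, so its place among the rises was favoured by the filter. Il2rb averaged 216.0 with GSK-LSD1 and 158.9 with the combination, against 95.5 with DMSO (limma adjusted p = 6.85e-08 and 2.03e-05). The part of these genes in the Id2 and Id3 changes was not tested.

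For plasmacytoid dendritic cells, 4 of 11 markers were tested, Klk1 and Ly6d were at 0 in every library and Siglech reached at most 3.95. The summed level of the 11 markers was 347.8 to 417.1 with ruxolitinib, 444.6 to 496.7 with GSK-LSD1, 471.1 to 538.0 with the combination and 332.1 to 380.3 with DMSO, and Bcl11a was the most abundant of them with DMSO. Pacsin1 passed with both GSK-LSD1 and the combination (log2 changes 0.89 and 0.72), Runx2 with GSK-LSD1 (0.50) and Tlr7 with the combination (1.12). Bcl11a, also tested, passed with neither, at means of 174.8 with GSK-LSD1 and 216.1 with the combination, against 174.6 with DMSO. Among all genes, 17.0% rose with GSK-LSD1 and 20.5% with the combination. For conventional dendritic cells 1 of 7 markers was tested, Itgae, and it was called. It averaged 132.6 normalised read counts with GSK-LSD1 and 145.7 with the combination, against 80.2 with DMSO (log2 changes 0.71 and 0.86, limma adjusted p = 0.000857 and 8e-05), with no overlap with DMSO. The markers Batf3, Xcr1 and Clec9a had at most 1.98 normalised read counts in any library. B cell markers summed to at most 7.93, and T cell markers to 74.3 to 105.3 over all libraries, most of it Lck. The part of these markers in the changes of the Id genes was not tested.

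Among all tested genes, those whose levels followed Id3 most closely over the 12 libraries were Anpep, which encodes aminopeptidase N (CD13), Axl, a receptor tyrosine kinase, and P2rx7, an ATP-gated channel whose exons overlap Mir8115 on the same strand. Their Pearson's r with Id3 was 0.991, 0.991 and 0.99 on the log2 scale, as a description of libraries that fall into groups with and without GSK-LSD1. Axl had 61.7, 66.8 and 90.9 normalised read counts with ruxolitinib, 326.7, 307.5 and 291.2 with GSK-LSD1, 264.8, 282.1 and 290.4 with the combination, and 55.6, 71.0 and 86.2 with DMSO. Axl did not overlap between libraries with and without GSK-LSD1, an order that a gene picked for its likeness to Id3 tends to share. Those closest to Id2 were Asah1, which encodes acid ceramidase, the tetraspanin gene Cd9, and Pdha1, a subunit of pyruvate dehydrogenase, with r of 0.964, 0.961 and 0.957. Cd9 and Pdha1 share exon positions with genes on the opposite strand. Asah1 had 391.0, 361.7 and 356.7 with ruxolitinib, 498.5, 516.6 and 539.5 with GSK-LSD1, 525.7, 500.1 and 478.3 with the combination, and 380.3, 428.1 and 413.9 with DMSO. Asah1 was picked in the same way for Id2. Its libraries with GSK-LSD1 lay above DMSO, but its ruxolitinib range overlapped that of DMSO.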

How the data were processed

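Total RNA came from a small-scale column kit, and a company prepared and sequenced the libraries, per the labels' protocols. The deposited values are a normalised signal per gene and library: counts scaled by the authors with 1 factor per library and raised by 1e-05, as the values show. STAR, DESeq2, mm10 and GRCm38 are named in the submitters' processing notes, without versions. The counting program and strandedness are not given in the sources used here. The added constant was taken off, and no test that needs counts was run.

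Genes with a mean of at least 10 over 12 libraries were tested (11484; 7367 of 24411 symbols were at 0 throughout). Using limma (3.58.1, R 4.3.3), log2(value + 1) was modelled with 1 mean for each treatment and a variance trend, and p-values were adjusted by Benjamini-Hochberg over all genes, at a threshold of 0.05. The steps were also run on simulated counts with the same fixed spread for all genes. These had no GC trend and no libraries that stood apart, so the run does not cover those features of the data. Intervals are 95% intervals from this fit. The GC correction took off, per library, a smooth curve over GC content (11035 tested genes). This curve was fitted to the library's deviation from the mean of all 12 libraries, so a GC trend that follows treatment is taken off too. Positions are from GENCODE vM21 on GRCm38, and promoter windows from RefSeq (GRCm38.p6), which held 4 of the 6 genes.

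The 6 genes and all lists were chosen with earlier results of these data known. From each list up to 3 genes were named, those past the test against DMSO with the largest log2 change and a group mean of 50 or more in the higher group, with Gfi1 and Gfi1b by name. Twist1, Lmo1, Smad5, Smad6, Smad7, Tgfbr3, Eng, Acvr2b and the cell type markers named singly fall outside this rule and were picked after their values were seen. The alternatives were other pseudocounts, filters, scalings and variance models, the GC correction, a replicate block, and leaving out libraries. Cell numbers, protein and binding were not analysed here.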

Additional observations from a re-analysis of the deposited data

How the results depend on the processing

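Of 995 changes of the 6 genes recomputed under 24 alternatives, 974 kept their side of the threshold, 5 calls were lost (all of Id2 against DMSO), 16 were gained (of Id1 and Tcf3), and none reversed with a call. Id3 passed with GSK-LSD1 and with the combination under every alternative. Without ruxolitinib replicate 2 and combination replicate 3, 1 of the 6 genes passed with ruxolitinib against DMSO and 4 with the combination against ruxolitinib. After GC correction, with or without the block, 4 passed with GSK-LSD1 against DMSO and 4 in the F-test. Leaving out a single library gave 1 to 2 with GSK-LSD1 against DMSO and 1 to 2 with the combination against DMSO; the libraries that mattered are named above. Counts over all genes moved most where few passed. For ruxolitinib against DMSO (187) there were 98 with no filter, 43 with no variance trend, 82 with only these groups fitted, 307 after GC correction, 317 without both doubtful libraries, and 32 to 551 when 1 library was left out (lowest without DMSO replicate 3, highest without combination replicate 3). For the combination against GSK-LSD1 (161) there were 93 with no trend, 283 after GC correction, 270 without both libraries, and 83 to 226 when 1 library was left out. The interaction (1) had 0 with no filter, quantile normalisation or no trend, 3 after GC correction, 3 without both libraries, and 0 to 2 with a library left out. The causes were not tested.

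Replicate numbers did not pair the libraries: the 18 same-number correlations of deviations ran from -0.148 to 0.15, and 4 of 12 libraries matched their own number best. With a replicate block, ruxolitinib against DMSO had 112 genes and the interaction 0, or 5 with GC correction as well, and it changed no call of the 6 genes by itself. List counts were also recomputed with 2 alternatives added after seeing the data. The BMP and TGF-beta genes that rose with GSK-LSD1 then numbered 10 after GC correction and 12 without both libraries. With the combination they numbered 10 and 9. Falls with GSK-LSD1 or the combination numbered 2 rather than 1 among other HLH genes under both alternatives and among regulators after GC correction, and 2 rather than 1 dimer partners fell with the combination without both libraries; the other lists that moved are given above.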
